A study of Mus musculus with 16 samples.

Results

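The canonical histone genes of the mouse retina were followed as 1 family, by the 67 protein-coding genes whose symbol starts with Hist1h, Hist2h, Hist3h or Hist4h among the 54532 genes of the expression table. They comprise 6 genes for the linker histone H1, 18 for H2A, 18 for H2B, 12 for H3 and 13 for H4. The Hist1 cluster on chromosome 13 holds 54 of them, the Hist2 cluster on chromosome 3 holds 10, Hist3 on chromosome 11 holds 2 and Hist4 on chromosome 6 holds 1. Names and gene class fix the membership, but the family was selected on results of these libraries that were already known. The FPKM of its lead genes Hist1h3d and Hist2h3c2 at 18 and 12 months are taken as the values used, so their age difference is given as a description with no test. Of the 67 genes, 65 also had a row in the count table, with Hist1h2bh and Hist1h2bm not analysed there.

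RNA-seq was made from whole retinas of mice described as C57BL6/J. In the uninjected table, 4 libraries came from wildtype mice of 18 months, 3 from Elovl2 mutants of 12 months and 3 from wildtype mice of 12 months. Elovl2 encodes an elongase of very long polyunsaturated fatty acids, and its substitution is written C34W in the genotype labels and C234W in the series design. In the injected table, 3 libraries came from retinas of 18 months that had received 0.36 nmol of the fatty acid 24:5 in the vitreous, and 3 from retinas of 18 months injected with vehicle, all taken 5 days later. The fatty acid went into 1 eye and vehicle into the other, but which retinas shared an animal is not stated, nor that libraries of a group came from separate animals. The p-values therefore compare differences with a spread between libraries that may be technical in part. As a check of the tissue, Sag, the photoreceptor arrestin, stood at 506 to 607 FPKM and Rlbp1, a retinoid-binding protein of Mueller glia and pigment epithelium, at 172 to 257 FPKM in all uninjected libraries. The libraries held 12810558 to 30519417 reads (uninjected) and 22066668 to 25609242 counts (injected).

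Histones package DNA: H2A, H2B, H3 and H4 form the core that DNA wraps around, and H1 binds the linker between cores. The clustered genes supply new histones while DNA is copied in S phase. Their mRNAs are unusual in ending at a conserved stem-loop, bound by SLBP and cut with the U7 particle, in place of a poly(A) tail. In non-dividing cells such as photoreceptors, histones are renewed largely from replication-independent genes with ordinary polyadenylated mRNAs, such as H3f3b. Some cluster genes are known to give polyadenylated mRNAs as well when cells leave the cycle, so selection with oligo(dT) favours those forms.

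The stem-loop was visible in the annotated transcripts. The letters GG, 2 of any base, CTT, any base, T, any base, AG, 2 of any base and CC, searched on the transcript strand within 100 bases after the stop codon (GENCODE M21, build GRCm38, the same build as the authors' mm10), were found in 46 of the 67 genes. Among all 21901 coding genes searched, 52 (0.237%) held them, and the 6 outside the family were Lman2l, Lrrc75b, H2bfm, H2afx, Snrpa and Gm9507, of which H2bfm and H2afx are also histone genes. A missing match says only that these letters are not in the annotated window, and 17 of the 21 genes without one have fewer than 100 annotated bases after the stop codon. The sites below are those of the genes on which the results turn, with the 16-base stem-loop in capitals and 5 flanking bases on each side.
Hist1h3d (H3, chr13:23576239-23576264, plus strand): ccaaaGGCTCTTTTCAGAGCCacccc
Hist2h3c2 (H3, chr3:96238480-96238505, minus strand): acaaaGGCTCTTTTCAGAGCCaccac
Hist1h3e (H3, chr13:23561898-23561923, minus strand): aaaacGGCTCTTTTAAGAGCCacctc
Hist1h1c (H1, chr13:23739507-23739532, plus strand): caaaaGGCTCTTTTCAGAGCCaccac
Hist3h2a (H2A, chr11:58955167-58955192, plus strand): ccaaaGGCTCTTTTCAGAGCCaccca
Hist3h2ba (H2B, chr11:58949344-58949369, plus strand): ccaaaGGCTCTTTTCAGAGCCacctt
Hist1h4i (H4, chr13:22040961-22040986, minus strand): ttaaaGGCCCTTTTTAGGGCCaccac
Hist1h4c (H4, chr13:23698084-23698109, minus strand): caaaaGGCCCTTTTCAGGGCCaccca
Hist1h4d (H4, chr13:23581945-23581970, plus strand): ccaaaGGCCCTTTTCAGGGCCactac
The form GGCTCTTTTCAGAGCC was the commonest, in 26 genes of H1, H2A, H2B and H3. The form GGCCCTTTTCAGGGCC was held by 7 genes, all of them H4 genes, and 12 of the 13 H4 genes had a match of some form.

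H2A and H2B genes often lie head to head, and 12 such pairs had starts within 500 bases of each other. Hist1h2ac and Hist1h2bc, the most abundant gene of the family in the uninjected retinas, share 250 bases on chromosome 13 (23683949 to 23684198). The RefSeq promoter window of Hist1h2ac (GRCm38.p6, chr13:23683910-23684209, minus strand, 250 bases before the start and 50 after) spans this gap, and is shown because its genes differ so much in level. Its capitals mark a TATA box (TATAAA), 3 CCAAT boxes (CCAAT) and an octamer (ATTTGCAT), each searched on both strands. None of these motifs contains another.
Hist1h2ac promoter: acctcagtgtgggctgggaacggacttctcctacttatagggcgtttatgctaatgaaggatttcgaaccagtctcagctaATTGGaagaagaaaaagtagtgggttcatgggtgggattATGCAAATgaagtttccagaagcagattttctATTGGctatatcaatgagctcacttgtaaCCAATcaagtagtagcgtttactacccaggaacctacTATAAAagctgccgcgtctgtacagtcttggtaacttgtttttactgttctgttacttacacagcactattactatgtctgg
Across the 60 genes with a RefSeq promoter starting within 100 bases of the annotated start, the octamer stood in 13, namely 7 H2A and 6 H2B genes, against 1.97% of 27025 genes in all. CCAAT stood in 51, including every H1, H2A, H2B and H3 promoter but only 3 of 12 H4 promoters, against 41.1% of all genes. TATAAA stood in 34, against 15.7% of all genes. Promoter windows of head-to-head genes can overlap, so a single site can count for both genes, as the octamer of Hist1h2ae and Hist1h2bg does.

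In the uninjected retinas the family was a small and uneven part of the transcriptome. It took 457, 376, 400 and 422 RPM (reads per 1000000 reads of the library) in wildtype retinas of 18 months, 382, 496 and 516 in Elovl2 mutants, and 433, 452 and 497 in wildtype retinas of 12 months. The 3 groups overlapped. Reads were detected for 59 of the 67 genes, 18 had a mean of at least 1 FPKM (fragments per kilobase of gene and per 1000000 fragments), and 5 a mean of at least 10 FPKM. Just inside that limit lay Hist1h4c at 1.34 and Hist1h3d at 1.15 FPKM, and just outside it Hist1h1a at 0.918 and Hist1h2ad at 0.865 FPKM. A single group of 4 genes, Hist1h2bc, Hist1h1c, Hist3h2ba and Hist3h2a, supplied 71.43% to 79.95% of all family reads in each library.

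Hist1h2bc, an H2B gene on chromosome 13 (23684199 to 23692908, plus strand), led the family. It stood at 98.8, 71.1, 69.8 and 81.6 FPKM in wildtype retinas of 18 months, at 76.9, 91.9 and 104 FPKM in mutants, and at 93.5, 72.5 and 81.2 FPKM in wildtype retinas of 12 months. Its annotated transcript has 2 exons and 742 bases after the stop codon, with no stem-loop match within the first 100. Its head-to-head neighbour Hist1h2ac, an H2A gene, averaged 3.67 FPKM over the 10 libraries, against 84.1 FPKM for Hist1h2bc. By the coordinates of the deposited table, both genes start within the stretch printed above.

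Hist1h1c, which encodes an H1 linker histone, was next. It stood at 77.0, 66.5, 69.8 and 77.5 FPKM in wildtype retinas of 18 months, at 64.4, 95.6 and 103 FPKM in mutants and at 62.4, 93.8 and 110.5 FPKM in wildtype retinas of 12 months. The libraries of 18 months were the most alike, and lay within the range of the wildtype libraries of 12 months. Hist3h2ba, an H2B gene on chromosome 11, averaged 73.9 ± 9.22 FPKM in wildtype retinas of 18 months (SD, n = 4), 73.0 ± 18.2 in mutants (n = 3) and 62.4 ± 9.27 in wildtype retinas of 12 months (n = 3). Its neighbour Hist3h2a, an H2A gene, averaged 25.2 ± 2.52 FPKM in wildtype retinas of 18 months, had 24.0, 22.7 and 25.8 FPKM in mutants, and averaged 24.7 ± 4.61 FPKM in wildtype retinas of 12 months. Hist1h4i, the highest H4 gene here, averaged 13.4 ± 3.35 FPKM in wildtype retinas of 18 months (SD, n = 4), 13.3 ± 3.47 in mutants and 13.8 ± 0.581 in wildtype retinas of 12 months (n = 3 each). None of these genes separated the groups.

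**Figure D1:**
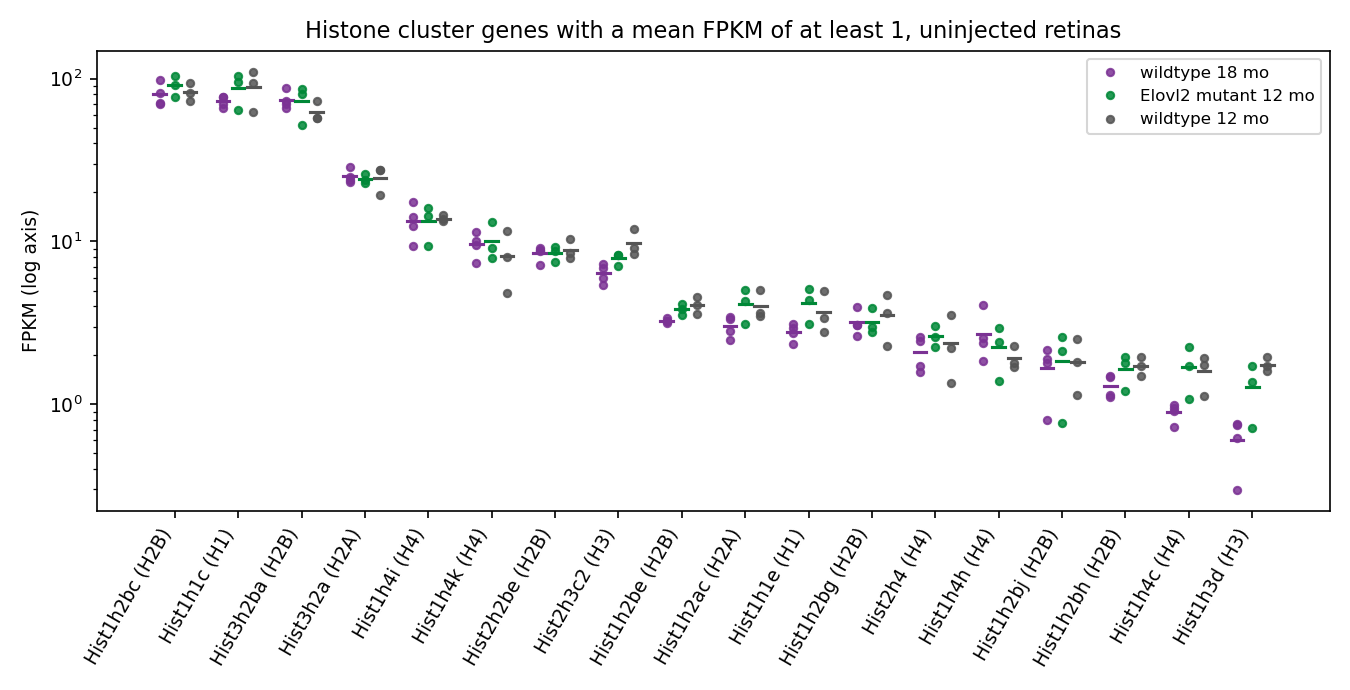
FPKM (log axis) of the 18 histone cluster genes with a mean of at least 1 FPKM, one point per library and a line at each group mean, for wildtype retinas of 18 months, Elovl2 mutants of 12 months and wildtype retinas of 12 months. Hist1h2bc, Hist1h1c and Hist3h2ba lie between 52.3 and 110.5 FPKM in all libraries, and the 18-month points lie below all 12-month wildtype points for Hist2h3c2, Hist1h2be, Hist1h2ac, Hist1h4c and Hist1h3d.

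The question of the age comparison was which family members differed between retinas of 18 and 12 months. The 2 lead genes, which encode H3, are described first and without a test. Hist2h3c2 (chr3:96238108-96239127, minus strand) stood at 5.99, 6.87, 5.44 and 7.25 FPKM in wildtype retinas of 18 months, against 11.9, 9.11 and 8.36 FPKM in wildtype retinas of 12 months. Hist1h3d (chr13:23575763-23577011, plus strand) stood at 0.762, 0.299, 0.749 and 0.62 FPKM at 18 months, against 1.94, 1.71 and 1.59 FPKM at 12 months. For both genes every library of 18 months lay under every wildtype library of 12 months. On the scale of log2(FPKM + 1), which understates the change of low genes, the differences were -0.54 (SE 0.12) for Hist2h3c2 and -0.78 (SE 0.17) for Hist1h3d. The values of Hist1h3d rest on few reads, 5 to 15 per library at 18 months and 42 to 72 per library in wildtype retinas of 12 months.

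No family member passed the threshold of 0.05 after Benjamini-Hochberg adjustment (limma-trend, two-sided), which was 0 of the 18 genes tested, and neither did any of the 13786 genes tested (0%). edgeR on the reads recovered from FPKM called 1 gene of the whole table and DESeq2 called 9, none of them in the family. Leaving out the lead genes, whose age difference carries no test, Hist1h2be and Hist1h4c were lower at an unadjusted p under 0.05. At that limit 0 members were higher, where 1.96% of all genes were lower and 1.69% higher. For Hist1h2be, Hist1h4c, Hist1h2ac and the lead genes the groups did not overlap. Of all genes, 2.22% were lower without overlap and 1.95% higher. Nothing is read from these counts, because Hist1h3d and Hist2h3c2 were picked with their values known. Hist1h3d and Hist1h4c, moreover, passed the filter of 1 FPKM through the libraries of 12 months, and their means at 18 months were 0.607 and 0.895 FPKM.

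The filter left out 41 of the 59 members with reads. Among all 59, 8 were lower at 18 months without overlap and 0 higher, the lead genes included, where 2.28% of the 33409 genes with reads were lower and 1.3% higher. The 3 below the filter were Hist1h2ad, Hist1h2ae and Hist1h3i, named after their values were seen. Hist1h2ad, an H2A gene, had 0.391 to 0.834 FPKM at 18 months and 0.850 to 2.06 FPKM in wildtype retinas of 12 months, from 3 to 8 and 11 to 35 reads per library. Hist1h2ae, another H2A gene, had 2 to 3 reads per library at 18 months and 7 to 12 at 12 months. Hist1h3i, an H3 gene, had 0 to 1 and 3 to 8 reads. Reads, unlike FPKM, are not scaled to depth, which was lower at 18 months.

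Hist1h2be, an H2B gene, had 3.25, 3.14, 3.38 and 3.23 FPKM in wildtype retinas of 18 months, against 4.09, 4.59 and 3.57 FPKM in wildtype retinas of 12 months. Its log2 difference was -0.25 (SE 0.082, adjusted p = 0.9999, limma). The annotated Hist1h2be gene overlaps Hist1h1e and Gm11398 on the same strand, so its reads could be shared among them. Hist1h4c, an H4 gene, had 0.994, 0.728, 0.912 and 0.945 FPKM at 18 months, against 1.93, 1.73 and 1.13 FPKM at 12 months, a log2 difference of -0.44 (SE 0.16, adjusted p = 0.9999, limma). Hist1h2ac had 3.34, 2.49, 2.81 and 3.46 FPKM at 18 months, against 5.03, 3.48 and 3.61 FPKM at 12 months, a log2 difference of -0.32 (SE 0.15, adjusted p = 0.9999, limma), and its highest value at 18 months lay just under its lowest at 12 months. Without the first wildtype library of 12 months the difference of Hist1h2ac was -0.18.

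The other 13 members that passed the filter overlapped between the ages. Over the 18 genes the median log2 difference was -0.088, beside -0.001 over all genes tested, and 14 of the 18 were below 0, beside 50.6% of all genes. These 18 include the lead genes, picked with their values known, and Hist1h4c, which passed the filter through the libraries of 12 months. Nothing is read from the median or the count for that reason. Without the second wildtype library of 18 months 10 of the 18 were below 0, and without any other single library 12 to 15 were. Without the third wildtype library of 12 months the median was -0.25, and without any other single library it lay between -0.17 and -0.11. The 4 above 0 included the abundant Hist3h2a and Hist3h2ba, together with Hist1h4h and Hist1h4k. Hist1h4h had 4.05, 2.38, 1.86 and 2.54 FPKM in wildtype retinas of 18 months, against 1.79, 2.27 and 1.69 FPKM in wildtype retinas of 12 months, and these overlapped. Depth moved with age, with 12810558 to 15909796 reads per library at 18 months and 18854246 to 27082456 in wildtype libraries of 12 months. Its part in these differences was not tested. Rn7sk, a structural RNA without a poly(A) tail, stood at 18.7 to 27.6 RPM at 18 months. It stood at 16.7 to 80.8 RPM in wildtype retinas of 12 months and 15.1 to 36.0 RPM in mutants. With the summed level of Rn7sk, Rpph1 and Rmrp, all such RNAs, as a covariate, 12 of the 18 were below 0 (median -0.12). The part of RNA selection was not tested. The summed markers of microglia and macrophages stood at 58.5 to 83.7 RPM at 18 months and 43.8 to 94.2 RPM in wildtype retinas of 12 months, those of blood at 55.9 to 80.3 and 64.7 to 112 RPM, and those of pigment epithelium at 133 to 366 and 157 to 250 RPM.

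Summed over all 12 H3 genes, the RPM were 8.003, 8.274, 7.74 and 9.62 in wildtype retinas of 18 months, 11.3, 11.5 and 11.9 in Elovl2 mutants of 12 months, and 17.0, 13.9 and 12.9 in wildtype retinas of 12 months. The 3 groups did not overlap, with the mutants between the wildtype ages. Hist2h3c2 gave 66.8% to 88.7% of that sum in each library and is 1 of the pair picked with its values known, so the order is a description. The sum over H2A genes, by contrast, was 62.7, 63.3, 73.4 and 64.1 RPM at 18 months, 64.0 to 71.3 in mutants and 61.4 to 74.4 in wildtype retinas of 12 months. In whole retina, fewer cells of a type and less RNA per cell cannot be told apart.

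**Figure D2:**
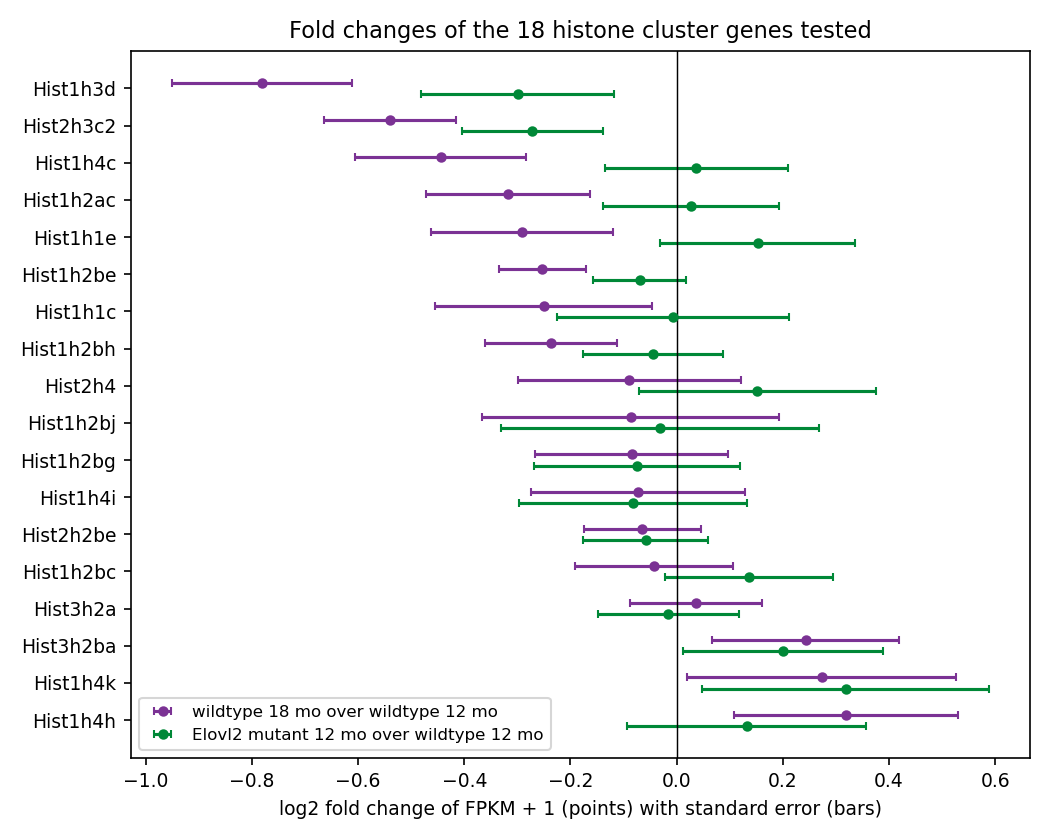
Log2 fold changes of FPKM + 1 (points) with standard errors (bars) for the 18 histone cluster genes tested, wildtype 18 months over wildtype 12 months and Elovl2 mutant over wildtype at 12 months, which share the wildtype libraries of 12 months. Hist1h3d and Hist2h3c2 have the lowest values in both comparisons, at -0.78 and -0.54 for age and -0.30 and -0.27 for genotype. Both genes were picked with their wildtype values known, so nothing is read from their rank.

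The genotype comparison asked whether mutant and wildtype retinas of 12 months differed. None of the 18 members passed the threshold (limma-trend), beside 0 of 13786 genes (0%), and 0 did so with edgeR or DESeq2 on the recovered reads. At an unadjusted p under 0.05 there were 0 members, against 1.11% of all genes lower and 1.08% higher. At 10 of 18 below 0 the members were near the 52.3% of all genes, and 6 were below 0 without the first mutant library. With the summed level of Rn7sk, Rpph1 and Rmrp as a covariate, 8 were below 0. Among the 18, Hist2h3c2 was lower without overlap and none was higher, where 2.92% of all genes were lower and 3.05% higher. Nothing is read from this for Hist2h3c2, because it was picked with the same wildtype values of 12 months known. Among all 59 members with reads, 2 were lower without overlap and 2 higher, where 2.78% and 2.36% of all genes with reads were. Hist2h3c2 had 8.24, 7.10 and 8.26 FPKM in mutants, against 11.9, 9.11 and 8.36 FPKM in wildtype retinas of 12 months, and the gap to the lowest wildtype library was small. Its log2 difference was -0.27 (SE 0.13), given as a description.

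Hist1h3d had 0.711, 1.73 and 1.37 FPKM in mutants, which overlapped the 1.94, 1.71 and 1.59 FPKM of wildtype retinas of 12 months. Its log2 difference was -0.30 (SE 0.18), given as a description. Hist1h3d was picked with the same wildtype values of 12 months known, and it passed the filter through the libraries of 12 months. Nothing is read from its difference for that reason. Hist1h4k, an H4 gene, had 7.97, 9.09 and 13.2 FPKM in mutants, against 8.09, 11.6 and 4.81 FPKM in wildtype retinas of 12 months, a log2 difference of 0.32 (SE 0.27). It was 0.026 without the third wildtype library and 0.58 without the second. Without the first mutant library the difference of Hist1h3d was -0.11. The log2 difference was 0.20 (SE 0.19) for Hist3h2ba and 0.14 (SE 0.16) for Hist1h2bc, each close to or under its SE, and without 1 library they lay from 0.067 to 0.42 and from 0.036 to 0.25. The median over the 18 was -0.011, beside -0.006 over all genes, and it was 0.19 without the first mutant library. Age and genotype share the wildtype libraries of 12 months, so these values are set side by side and not read as separate evidence.

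The machinery around the family was present in all uninjected retinas. Slbp, whose protein binds the stem-loop, stood between 3.22 and 4.16 FPKM, Npat, a transcription factor of the cluster genes, between 3.65 and 5.45 FPKM, and Lsm11, a subunit of the U7 particle, between 4.42 and 5.58 FPKM. Of 15 genes of histone mRNA processing and transcription, 14 were tested for age and for genotype, and 0 passed in either direction. Of 11 replication-independent histone genes, 10 were tested and 0 passed in either comparison, and H3f3b stood at 205 to 278 FPKM, above every cluster gene. H1f0 and H2afz, a linker histone and a variant H2A, stood at 28.0 to 38.3 and 41.3 to 71.5 FPKM. Of 20 genes of S phase and proliferation, 12 were tested and 0 passed, and the dividing-cell markers Mki67 and Top2a did not exceed 0.0148 and 0.0308 FPKM.

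In the injected table the family was led by H4 genes. It took 1387, 1056 and 950 CPM (counts per 1000000 counts of the library) in the retinas given 24:5 and 1227, 1028 and 945 in those given vehicle, and 44 of the 65 genes averaged at least 1 CPM per kilobase. H4 genes held 44.2% to 50.7% of family counts, beside 3.65% to 5.85% of family reads in the uninjected libraries. H2B genes held 17.0% to 23.0%, beside 38.6% to 49.8% in the uninjected libraries, and H1 genes 16.4% to 20.8%, beside 26.6% to 39.3%. The ranges of these shares did not overlap between the 2 tables for any of these classes. H2A genes held 7.12% to 9.46%, beside 13.4% to 18.3% in the uninjected libraries, also without overlap. H3 genes held 3.89% to 5.48%, beside 1.75% to 3.92%, and these ranges overlapped narrowly. Relative to the library total, H4 genes took 455 to 686 CPM, beside 18.1 to 26.7 RPM in the uninjected libraries. H2B genes took 164 to 282 CPM, beside 169 to 228 RPM, and H1 genes 155 to 270 CPM, beside 115 to 195 RPM. H2A genes took 67.3 to 107 CPM, beside 61.4 to 74.4 RPM, and H3 genes 41.6 to 55.6 CPM, beside 7.74 to 17.0 RPM. On that scale the H2B, H1 and H2A ranges overlapped, so their smaller shares of the family do not show lower levels. The H4 and H3 ranges did not overlap. The library totals are unlike, however. Rn7sk, Rpph1 and Rmrp took 8.54% to 13.4% of injected counts and mitochondrial genes 0%. In the uninjected libraries they took 0.00151% to 0.00808% and 2.66% to 4.31% of reads. With both left out of the totals, the family took 1033 to 1601 CPM injected and 392 to 537 RPM uninjected.

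**Figure D3:**
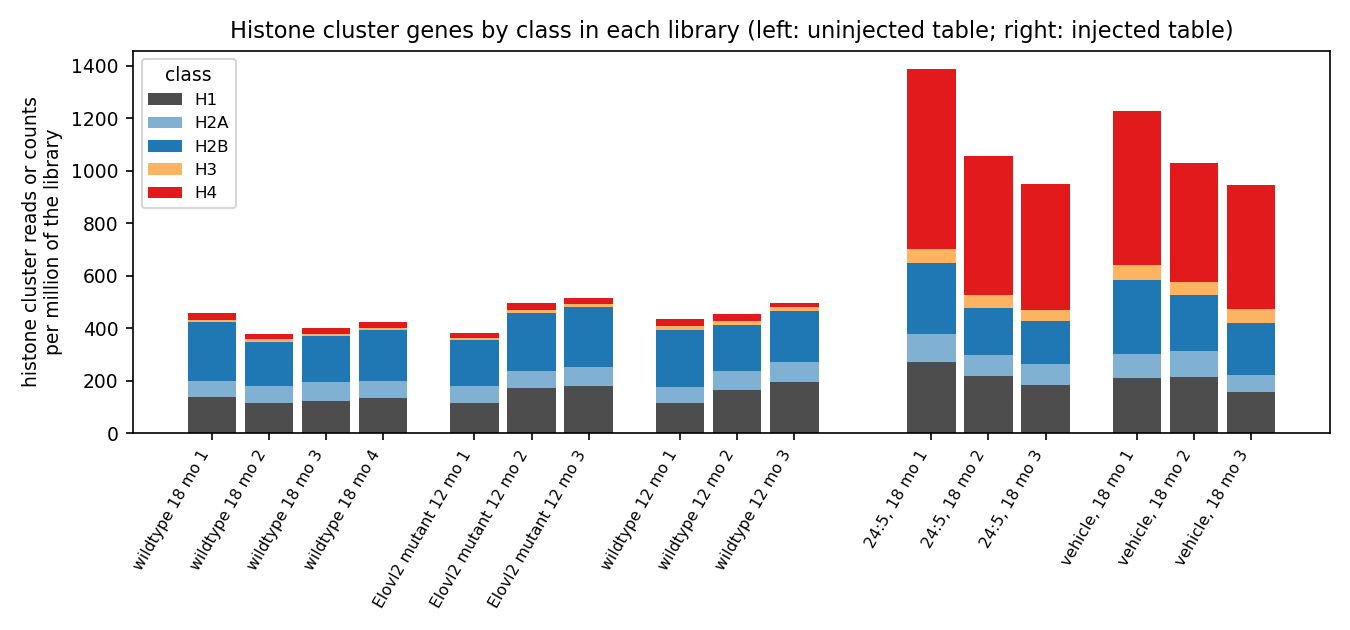
RPM (uninjected) or CPM (injected) of histone cluster genes, stacked by class H1, H2A, H2B, H3 and H4, for the 10 uninjected libraries (wildtype 18 months, Elovl2 mutant, wildtype 12 months) and the 6 injected libraries (24:5, vehicle). H4 genes are the largest class in every injected library and a thin band in every uninjected library.

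The leading single genes also differed between the tables. Hist1h4c ranked 17 by mean FPKM in the uninjected table, at 1.34 FPKM, and 1 in the injected table, with 356, 251 and 240 CPM per kilobase in retinas given 24:5 and 271, 217 and 206 in those given vehicle. Hist1h4d, another H4 gene, stood at 0.460 FPKM, ranking 24, and ranked 2 when injected, with 153, 145 and 128 CPM per kilobase after 24:5 and 145, 125 and 137 after vehicle. In each of the 6 libraries both stood above all other family genes. Hist2h2bb, an H2B gene, had 0 reads in all 10 uninjected libraries, where 3 reads, the limit that a count of 0 allows, would be 0.0983 to 0.234 RPM. It had 112, 79.3 and 79.9 CPM per kilobase after 24:5 and 113, 84.0 and 59.6 after vehicle, but it shares its position with Gm20628 and Gm42743, and its annotated transcript ends at the stop codon.

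Together with Hist1h4h, these genes supplied 36.9% to 42.4% of family counts in the injected libraries and 0.430% to 0.805% of family reads in the uninjected ones. The 4 genes that led the uninjected table supplied 19.9% to 26.5% of family counts. Hist1h3e, the highest H3 gene of the injected table, averaged 20.3 ± 1.06 CPM per kilobase after 24:5 and 19.9 ± 1.15 after vehicle (SD, n = 3 each), and averaged 0.386 FPKM in the uninjected table. Hist2h3c2 averaged 5.82 CPM per kilobase over the 6 injected libraries and Hist1h3d 1.93, so neither led the H3 genes there. Across the 65 genes in both tables, Spearman's rank correlation between mean FPKM and mean counts per kilobase was 0.564, a description over genes that share libraries.

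**Figure D4:**
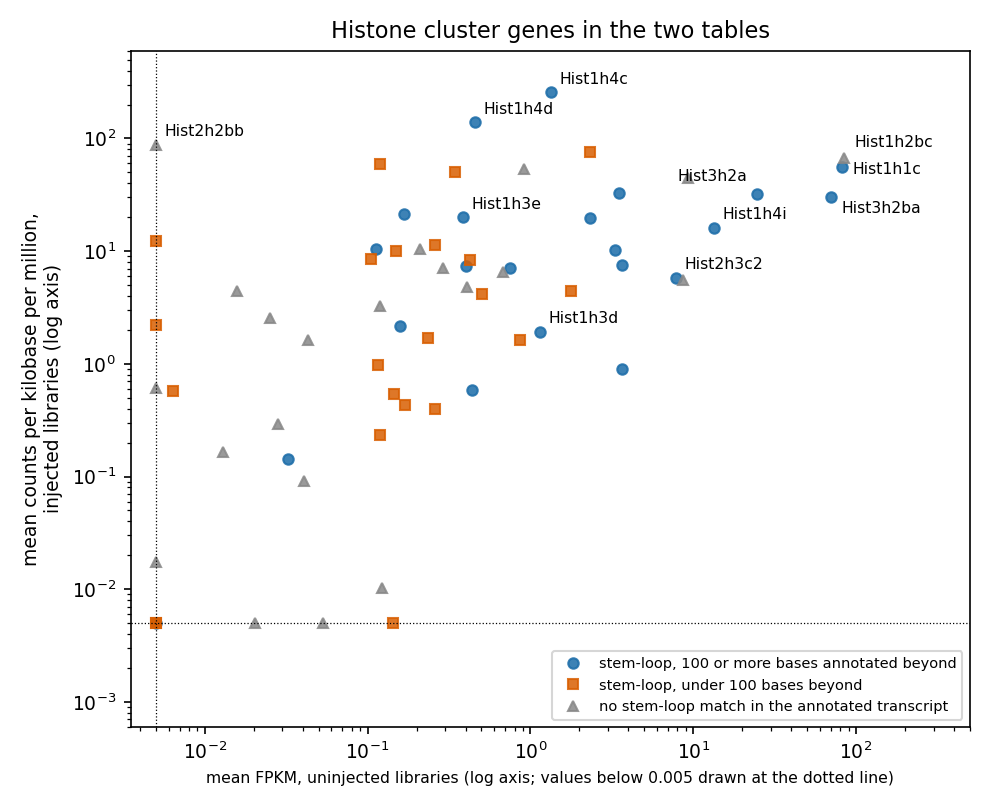
Mean FPKM in the 10 uninjected libraries against mean CPM per kilobase in the 6 injected libraries (log axes), one point per gene present in both tables, by whether the annotated transcript holds the stem-loop and how far it runs beyond. Hist1h2bc, Hist1h1c and Hist3h2ba lie at the right, Hist1h4c and Hist1h4d at the top, and Hist2h2bb at the left edge with 0 reads uninjected.

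The genes were next grouped by the length annotated beyond the stem-loop. Of the 23 genes whose transcript runs at least 100 bases past the stem-loop, 13 averaged at least 1 FPKM, and they supplied 63.5% to 73.4% of family reads. Of the 23 whose transcript ends within 100 bases of it, 2 did, and they supplied 0.745% to 1.08% of reads. In the injected table the shorter group supplied 9.33% to 11.8% of family counts, and the longer group 68.2% to 74.0%. The longer group includes Hist1h1c, Hist3h2ba and Hist3h2a, which were among the leading genes uninjected, and Hist1h4c and Hist1h4d, which led when injected. Its shares are therefore not spread evenly over the 23 genes. Of the 4 genes with no match and at least 100 bases after the stop codon, 2 averaged at least 1 FPKM and the 4 supplied 24.3% to 34.3% of uninjected reads. Of the 17 with no match and fewer than 100 bases after the stop codon, 1 averaged at least 1 FPKM. These 17 supplied 0.735% to 1.34% of uninjected reads and 9.19% to 10.2% of injected counts, much as the shorter stem-loop group did. The shares are not scaled to gene length. The 100-base limit was set after these values were seen.

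Structural RNAs that carry no poly(A) tail also differed between the tables. Rn7sk, Rpph1 and Rmrp, RNAs of the transcription machinery, of tRNA processing and of ribosomal RNA processing, held 13.4%, 9.55% and 9.21% of counts after 24:5 and 12.9%, 9.35% and 8.54% after vehicle. In the uninjected libraries they held 0.00151% to 0.00808% of reads. The labels describe poly(A) selection for both tables. The tables also differ in injection and in how they were deposited, and they were normalised separately, so differences between them cannot be told apart from these.

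Within the injected libraries, the order by family share was the order by structural RNA share, from the first library of 24:5 through the first of vehicle, the second of 24:5, the second of vehicle and the third of 24:5 to the third of vehicle. The part of RNA selection in this order was not tested. Lens and immune transcripts also differed among these libraries. The summed lens markers held 59.0 to 709 CPM after 24:5 and 138 to 1953 after vehicle, beside 1.54 to 3.37 RPM in the uninjected libraries.

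**Figure D5:**
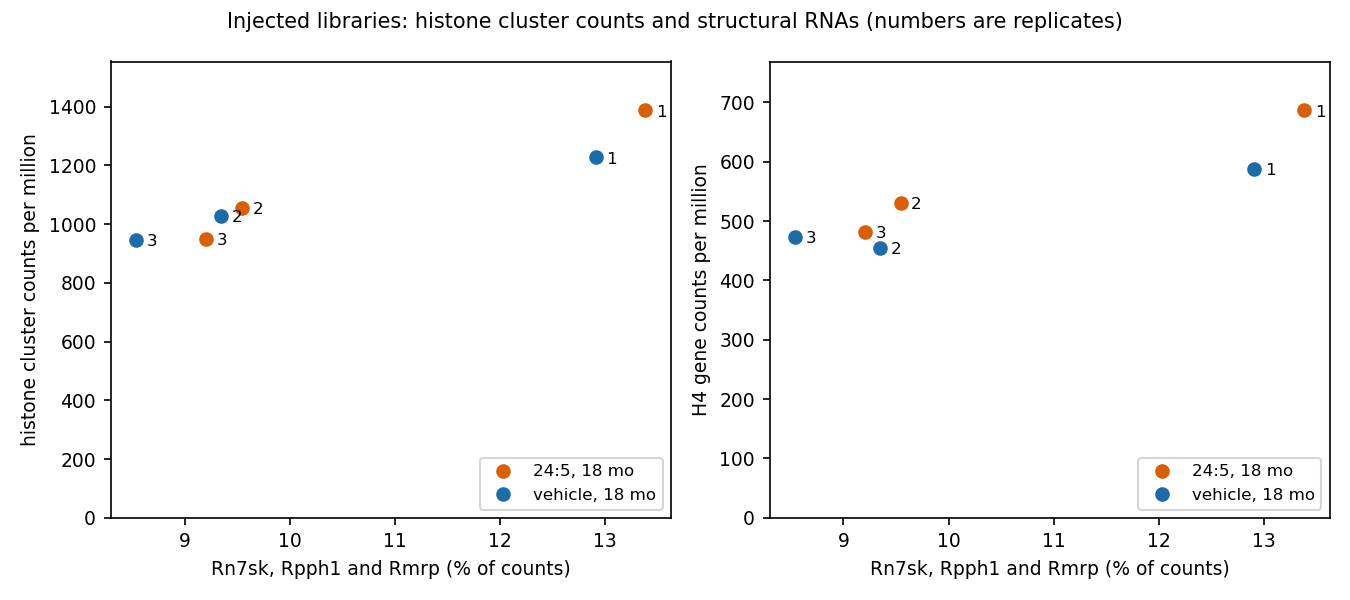
CPM of all histone cluster genes (left) and of H4 genes (right) in the 6 injected libraries against the share of counts in Rn7sk, Rpph1 and Rmrp, with replicate numbers, for 24:5 and vehicle. The first library of each group stands apart, with 12.9% to 13.4% structural RNA and 1227 to 1387 family CPM.

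The supplementation comparison asked whether the family differed between 24:5 and vehicle. None of 46 members tested passed the threshold in edgeR's quasi-likelihood test (two-sided, Benjamini-Hochberg), beside 2 of 17466 genes (0.0115%). DESeq2 called 248 genes, of which 0 were members. At an unadjusted p under 0.05, 1 member was lower, against 5.16% of all genes, and 0 were higher, against 1.44%. That is 2.17% of the members tested.

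That member was Hist1h2bg, an H2B gene, with 9.48, 8.50 and 7.90 CPM per kilobase after 24:5, against 13.0, 11.0 and 11.1 after vehicle. Its groups did not overlap, against 6.77% of all genes lower without overlap, and no member was higher without overlap, against 4.83% of all genes. Its log2 fold change was -0.41 (SE 0.16, adjusted p = 0.686, edgeR). Hist1h4c, at the levels given above, had a log2 fold change of 0.32 (SE 0.18, adjusted p = 0.900, edgeR). Hist1h1c averaged 63.3 ± 14.9 CPM per kilobase after 24:5 and 47.3 ± 13.5 after vehicle (SD, n = 3 each), a log2 fold change of 0.45 (SE 0.26). Both genes overlapped between the groups. Without the first 24:5 library their log2 fold changes were 0.11 for Hist1h4c and 0.24 for Hist1h1c. Hist1h2bl and Hist1h2bf, low H2B genes, averaged 1.86 ± 0.895 and 3.47 ± 1.20 CPM per kilobase after 24:5 and 3.23 ± 1.45 and 4.88 ± 0.718 after vehicle. Hist2h3c2 had 5.97, 5.93 and 5.70 after 24:5 and 7.61, 5.93 and 3.78 after vehicle on the same scale, so its vehicle libraries spread around the others. Hist1h3d had 2.56, 1.62 and 1.07 after 24:5 and 1.98, 2.62 and 1.74 after vehicle.

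By class, 12 of 13 H4 genes had a log2 fold change above 0 (median 0.17) and 10 of 11 H2B genes below 0 (median -0.21), none of which passed the threshold. Over all 46 genes 24 were below 0, beside 49.2% of all genes, and the median was -0.043, beside 0.003 over all genes tested. Without the first 24:5 library, which had the highest structural RNA share, 10 of the 13 H4 genes were below 0, with a median of -0.098, and the H2B median was -0.53. The median over all members was then -0.27, and it was 0.12 without the first vehicle library and 0.075 without the third 24:5 library.

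Among the dividing-cell markers, Mki67 averaged 0.852 ± 0.475 TMM-normalised CPM after 24:5 and 3.90 ± 1.17 after vehicle (SD, n = 3 each), a log2 fold change of -2.18 (SE 0.41, adjusted p = 0.209, edgeR). Top2a averaged 0.778 ± 0.532 CPM after 24:5 and 3.35 ± 1.27 after vehicle, a log2 fold change of -2.10 (SE 0.58, adjusted p = 0.459, edgeR). Neither overlapped between groups, where 6.77% of all genes were lower without overlap, and neither passed the threshold. Of the 20 genes of S phase and proliferation, 16 were below 0 and 4 above, beside 49.2% of all genes below 0, and 0 passed. At an unadjusted p under 0.05 (edgeR) there were 5 of the 20, where 6.61% of all genes were in either direction. Over the same libraries, all 12 markers of microglia and macrophages were below 0, with 0 passing and 9 at an unadjusted p under 0.05 (edgeR). Their summed level was 93.2 to 159 CPM after 24:5 and 216 to 354 after vehicle. Nothing is read from these counts, because the lists were chosen with earlier results of these data known. Slbp averaged 19.4 ± 0.738 CPM after 24:5 and 18.1 ± 0.499 after vehicle, a log2 fold change of 0.099 (SE 0.087). Of the 15 histone processing genes and 10 replication-independent histone genes tested, 0 passed.

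Near-identical copies limit the single-gene values. The median gene shared 34.3% of its 100-base stretches with another gene, 25 genes shared over 50%, and Hist2h2aa2 and Hist2h3c1 shared 100%. Of the 8 genes with 0 reads in every uninjected library, the shared part was 44.0% to 100%. Another annotated gene overlapped 7 family members on the same strand and 21 on the opposite strand, and the strand setting of the counting is not given in the sources used here. Hist1h4d had no shared 100-base stretch, Hist1h3d shared 20.4% and Hist2h3c2 61.6%, and how the authors assigned shared reads is not given in the sources used here.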

How the data were processed

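Per the labels' protocols, RNA was selected on oligo(dT) beads and made into strand-marked libraries. The authors deposited FPKM values with gene length and GRCm38 (mm10) coordinates for the 10 uninjected libraries, and raw counts per gene for the 6 injected ones. The submitters' processing notes name HISAT2 2.2.1, featureCounts 2.0.6 and DESeq2 1.42.0, with no role or order. FPKM times gene length was divided by a unit fitted in each library to the same values. The results were whole reads within 0.02 for 100% of values of up to 20000 reads. These recovered reads summed to 12810558 to 30519417 per library, and counts to 22066668 to 25609242. The fitted units correspond to larger totals, 13404937 to 32429337 reads per library, and RPM is scaled to the recovered sums.

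In R 4.3.3, limma 3.58.1 (trend, robust) was fitted to log2(FPKM + 1), with all 3 groups in 1 fit and genes of mean FPKM of at least 1. The counts went to edgeR 4.0.16 (quasi-likelihood, TMM, filterByExpr), with DESeq2 1.42.0 as an alternative. Levels of counts are divided by gene length from the FPKM table and scaled to each library's total, except where TMM-normalised CPM is named. Two-sided p-values were adjusted by Benjamini-Hochberg over all genes tested. The methods were also run on simulated data with changes only in genes of higher read numbers, which leaves out members with few reads. The members and gene lists were chosen with earlier results of these data known. Genes named singly are Hist1h3d, Hist2h3c2, the 5 highest per table, the highest per class, the 5 with the smallest p per comparison, and a few list genes. Count-table symbols were found for 48092 of 48440 identifiers. All 37 mitochondrial genes were at 0 there. Replicate pairs differed beyond counting noise, with chi-square per degree of freedom from 3.25 to 47.6.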

Additional observations from a re-analysis of the deposited data

Results flagged for a closer look

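The summed H2A genes in wildtype retinas of 18 months had 1 library apart from the others: replicate 3 held 73.4 RPM (reads per 1000000 reads of the library), and the other replicates 62.7, 63.3 and 64.1. The gap to the nearest library was 0.871 of the whole range, above Dixon's 95% critical value for 4 samples. Of 25 values tested in this way 1 was flagged, and chance flags about 1 in 20.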

How the results depend on the processing

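No family member passed the threshold under any alternative in any comparison. For age, the count of genes called was 4 with no filter on low values, 1 with edgeR and 9 with DESeq2 on recovered reads, and 0 without any single library. The family median was -0.3103 over the 59 members that DESeq2 fitted with no level filter. Over the 18 members it lay between -0.2531 (without the third wildtype library of 12 months) and -0.1101 without 1 library. For genotype, 4 genes were called with no filter, 0 without any single library, and the family median lay between -0.06179 and 0.191 (without the first mutant library). For supplementation, genes called were 248 with DESeq2, 85 with no filter, 47 with the structural RNA level as covariate, 88 with the replicate number as a block, and 0 to 105 without 1 library. Without the third vehicle library, which gave 105, the log2 fold change of Hist2h3c2 turned to -0.1735 (-0.1735 to 0.313 without 1 library), and without the third 24:5 library that of Hist1h3d turned to 0.01976 (-0.6318 to 0.01976). The cause was not tested.

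With the replicate number as a block, 0 members passed in any comparison and 0 genes did for age and genotype. Deviations of same-numbered libraries correlated at -0.049, 0.424 and -0.389 for age, 0.178, -0.425 and 0.514 for genotype, and 0.505, -0.315 and 0.558 for supplementation, so not every pair was above 0.1. The numbers were not taken as pairs, and whether same-numbered retinas share an animal is not stated. The low read numbers of most members limit what these libraries can show.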
